A study of Mus musculus with 24 samples.

Results

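The comparison described here is that of the hearts of mice carrying a pancreatic tumour with the hearts of tumour-free mice, across all genes. Its 8 libraries are part of 24 of heart and skeletal muscle, taken from C57BL/6J males and profiled to study pancreatic cancer cachexia, the wasting that accompanies the disease. The 4 control hearts came from mice with sham surgery and no treatment. The 4 KPC hearts came from vehicle-treated mice whose pancreas had been implanted with KPC32908, a mouse line of pancreatic cancer cells. The labels of the controls also carry the name of the line, and the design text of the series calls them sham mice. Only the tumour-bearing mice received vehicle, so the tumour and the vehicle cannot be told apart. All tumours came from 1 line, ages and time after surgery are not given here, and nothing in the labels records which chambers of each heart were taken. Total counts were 14490300 to 19522100 per control library and 13241400 to 20969600 per KPC library, and these set the counting precision of each value below.

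Tumours act on distant organs through circulating signals. Interleukin-6 and related cytokines bind receptors that share the subunit gp130 and activate the transcription factor STAT3, which switches on acute phase genes, best known from liver. Glucocorticoid hormones, released in illness, bind the glucocorticoid receptor, which activates metabolic and anti-inflammatory genes, while in heart muscle noradrenaline acts through beta-adrenergic receptors and protein kinase A to set the force and rate of contraction.

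The genes with the smallest p in the glucocorticoid, interleukin-6 and acute phase lists were Il4ra, Fkbp5 and Osmr, and their promoters are shown because these genes lead the results below. Each line gives the 250 bases before the RefSeq start in build GRCm38.p6, 5′ to 3′ on the gene's strand.
Il4ra, chr7:125552021-125552270, plus strand: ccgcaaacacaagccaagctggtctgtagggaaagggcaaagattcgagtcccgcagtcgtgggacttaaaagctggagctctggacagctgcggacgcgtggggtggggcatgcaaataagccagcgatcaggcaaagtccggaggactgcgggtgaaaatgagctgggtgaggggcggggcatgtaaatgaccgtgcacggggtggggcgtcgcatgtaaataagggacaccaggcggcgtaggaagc
Fkbp5, chr17:28486150-28486399, minus strand: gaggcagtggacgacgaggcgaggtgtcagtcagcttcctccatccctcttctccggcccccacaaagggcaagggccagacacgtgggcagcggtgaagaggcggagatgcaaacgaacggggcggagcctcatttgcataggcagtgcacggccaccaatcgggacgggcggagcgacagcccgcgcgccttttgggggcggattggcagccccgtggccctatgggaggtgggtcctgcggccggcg
Osmr, chr15:6874314-6874563, minus strand: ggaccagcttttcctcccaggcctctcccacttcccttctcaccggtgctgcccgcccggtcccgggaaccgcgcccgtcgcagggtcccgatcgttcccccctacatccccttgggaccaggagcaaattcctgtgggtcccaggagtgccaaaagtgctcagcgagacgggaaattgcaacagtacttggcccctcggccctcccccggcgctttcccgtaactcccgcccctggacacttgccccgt
None of the 3 windows holds the STAT letters TTCNNNGAA or the glucocorticoid receptor letters, GNACA and TGTNC with 3 free bases between them, both of which read the same on either strand. These windows are close to the start only, and in the GENCODE vM21 annotation of the same assembly the Fkbp5 gene spans chr17:28399094-28517527 and the Osmr gene chr15:6813577-6874969, so both windows lie inside the annotated genes. The Il4ra gene spans chr7:125552120-125579474, so part of its window lies inside it too.

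Of the 32 genes that rose in these lists, 28 had a promoter entry, and 4 of the 28 held the glucocorticoid receptor letters, namely Serpina3n, Fam107a, Sgk1 and Mt1. Among the 10488 genes tested that had an entry, 36 held them, or 0.343%. The lists include one made of genes known to be induced by glucocorticoids, so these shares are not a test of a receptor response in these hearts. The 4 stretches of 60 bases follow, chosen after their matches were known, with the match in capitals.
Serpina3n, chr12:104406607-104406666, plus strand: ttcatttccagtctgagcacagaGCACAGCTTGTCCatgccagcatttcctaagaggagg
Fam107a, chr14:8309861-8309920, minus strand: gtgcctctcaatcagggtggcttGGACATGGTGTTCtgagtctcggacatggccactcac
Sgk1, chr10:21993679-21993738, plus strand: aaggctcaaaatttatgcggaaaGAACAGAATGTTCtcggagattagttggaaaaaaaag
Mt1, chr8:94178972-94179031, plus strand: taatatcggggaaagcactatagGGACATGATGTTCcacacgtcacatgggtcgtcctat
The match began 78 bases before the start in Serpina3n, 188 in Sgk1 and 94 in Mt1. In Fam107a it began 118 or 120 bases before the start, depending on the entry, and Fam107a and Sgk1 had 3 and 6 entries. The STAT letters were also held by 4 of the 28 genes (Tsc22d3, Sgk1, Socs3 and Itih4), against 7.24% of the genes tested with an entry. These matches are descriptions of letters and do not show that a factor binds there.

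The hearts differed in what tissue they held, and this bears on every result that follows. Heart muscle markers were abundant in all 8 libraries: Myh6, the main adult heavy chain of mouse heart myosin, lay between 11968 and 31260 CPM (the count of a gene per unit of library size, which is scaled here by trimmed mean of M values). The 14 atrial markers summed to 3639 and 4061 CPM in controls 2 and 4 and to 1183 CPM in KPC 1, against 339 and 368 CPM in controls 1 and 3 and 195 to 363 CPM in the other KPC hearts. Sln, the atrial regulator of the calcium pump, read 116, 111 and 66.3 CPM in those 3 libraries and 0 to 0.396 CPM in the other 5. None of the 14 atrial markers passed the test, and their median log2 fold change was -1.88, so a lower level of an atrial gene in KPC hearts cannot be told apart from less atrial tissue.

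**Figure D1:**
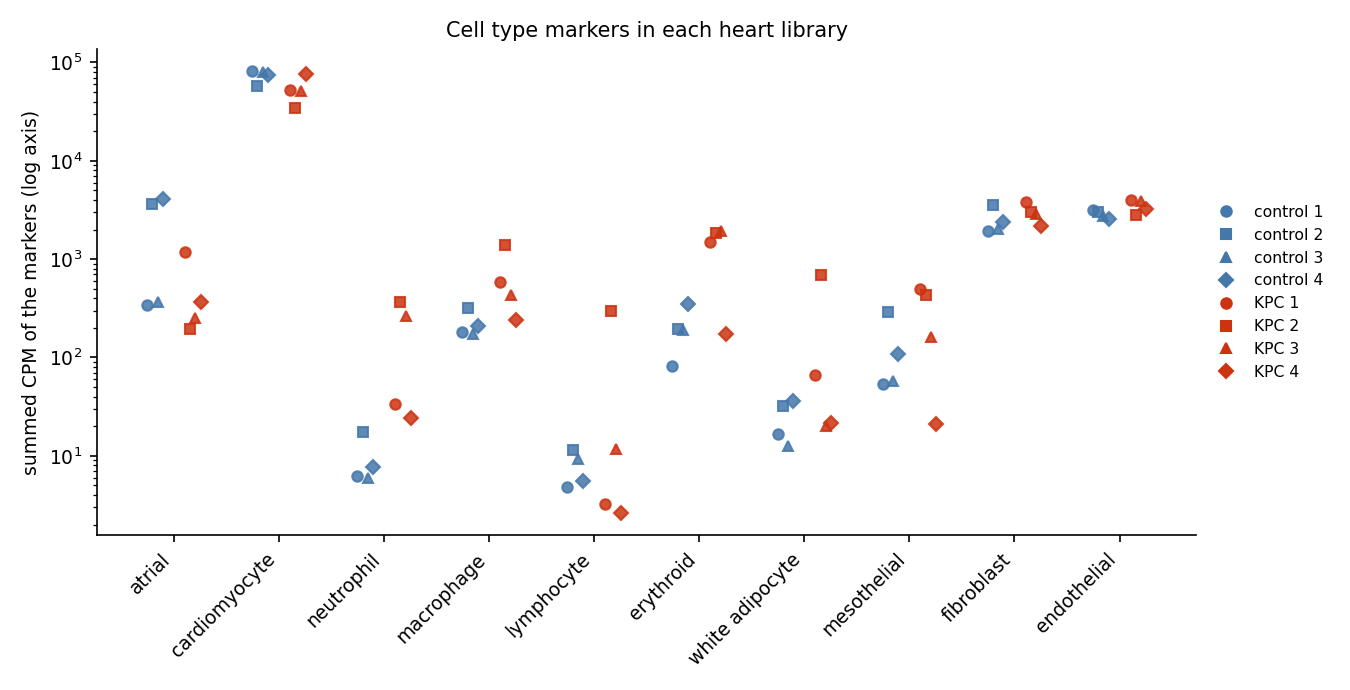
Summed CPM (log axis) of the markers of 10 cell types in each of the 4 control (blue) and 4 KPC (red) hearts, with 1 symbol per library. Atrial markers stand high in controls 2 and 4 and KPC 1, and erythroid markers in KPC 1, 2 and 3. Mesothelial markers are highest in KPC 1 and 2, and lymphocyte and adipocyte markers stand high in KPC 2.

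The KPC hearts also differed among themselves. KPC 2 held transcripts of B cells and fat: Ms4a1, a B cell surface protein, read 105 CPM there against 0.134 to 2.39 CPM in the other 7 libraries, and Adipoq, the adipocyte hormone adiponectin, 83.5 CPM against 0 to 6.06 CPM. The 6 mesothelial markers measured summed to 502, 436, 163 and 20.9 CPM in KPC 1 to 4, and to 53.8 to 287 CPM in controls. The 7 epithelial markers of ductal tumour cells measured summed to 106, 195, 50.7 and 8.69 CPM in KPC 1 to 4, and to 11.6 to 56.2 CPM in controls. No member of either list passed the test. The 5 erythroid markers measured, of 10 in the list, summed to 1492 to 1950 CPM in KPC 1, 2 and 3, and to 172 CPM in KPC 4, within the 82.5 to 350 CPM of the controls. Slc4a1 of these, the anion exchanger of red cells, rose (edgeR adjusted p = 0.0243), with the groups overlapping through KPC 4, and lost its call without any 1 of the controls or KPC 3 (up to 0.0802). KPC 4 lay nearest to the control mean in 929 of the 1293 genes called below (71.8%) and in 50.9% of all genes tested, and KPC 2 lay farthest from it in 66.7% and 51.1%. The part of these differences in tissue content in the results below was not tested, except where a value without the libraries is given.

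Of 14537 genes listed, 13846 had enough counts to be tested, and 1293 passed an adjusted p of 0.05 (edgeR quasi-likelihood test on all 12 heart libraries, Benjamini-Hochberg adjustment). That is 9.34% of the genes tested: 686 (4.95%) were higher and 607 (4.38%) lower in KPC hearts, and 401 of the former and 173 of the latter differed by 2-fold or more. With libraries scaled by their totals the split was 1368 higher and 330 lower, or 80.6% higher in place of 53.1%, and the median log2 fold change over the genes tested moved from 0.02 to 0.17. In 1980 genes (14.3%) the 4 KPC libraries did not overlap the 4 controls, with KPC higher in 829 (5.99%) and lower in 1151 (8.31%). The counts of calls and of genes without overlap in the lists below are to be read beside these shares. The count of calls moved with single libraries. It was 104 without control 3, 186 without control 4, 208 without control 1, 268 without KPC 3, 405 without KPC 2, 529 without control 2 and 3554 without KPC 4. It was 229 when the 8 libraries were fitted without the drug-treated hearts that shared the fit, and 13 when the 3 libraries with atrial transcripts were left out. 100 of the called genes, 69 higher and 31 lower, held whichever 1 of the 8 libraries was left out, and none of these 100 overlapped between groups; the text calls them stable to leaving out a library.

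The acute phase genes, whose products rise in blood during inflammation, were among the most changed. 9 of the 11 tested rose and none fell, with a median log2 fold change of 4.11 against 0.02 over all genes, and 8 did not overlap. Serpina3n, a secreted inhibitor of serine proteases, read 6.95, 11.3, 5.95 and 13.4 CPM in controls 1 to 4 and 295, 294, 183 and 39.8 CPM in KPC 1 to 4. All 4 KPC hearts were above all controls, KPC 4 being the lowest of them, and the log2 fold change was 4.43 ± 0.55 (SE; edgeR adjusted p = 0.00282). Lcn2, lipocalin 2, a protein that withholds iron from bacteria, read 2.78, 1.85, 1.74 and 2.85 CPM in controls and 81.5, 84.4, 71.1 and 7.49 CPM in KPC hearts. KPC 4 stood far below the other KPC hearts and still above every control, and the fold was 26.4 (edgeR adjusted p = 0.00364). Lrg1, leucine-rich alpha-2-glycoprotein, read 20.8 to 29.9 CPM in controls and 80.7, 116, 109 and 44.3 CPM in KPC 1 to 4, a 3.45-fold rise. Serpina3n, Lcn2 and Lrg1 were the members stable to leaving out a library.

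Other acute phase genes rose mainly in KPC 1 to 3. Saa3, serum amyloid A3, had 3 counts over the 4 controls together and read 108, 527, 14.8 and 0.201 CPM in KPC 1 to 4. Its ratio of pooled counts, 12473 against 3 scaled by library size, was 3755 with a 95% interval of 1284 to 18209 that covers counting error only. Itih4, inter-alpha-trypsin inhibitor heavy chain 4, read 0.870 to 2.80 CPM in controls and 27, 67.4, 18 and 3.08 CPM in KPC hearts, with KPC 4 beside the controls. Saa3 lost its call without control 1, 3 or 4 (edgeR adjusted p = 0.0580, 0.0681 and 0.0624), and Itih4 lost its call without control 1 or 3, reaching 0.0681. The log2 fold change of Saa3 was 11.51, 9.55 without KPC 2 and 12.41 without control 2, and that of Itih4 went from 4.11 to 3.30 without KPC 2. The count of acute phase genes that rose was 3 without control 3, 11 without KPC 4, 7 with the atrial content as a covariate and 0 without the 3 libraries with atrial transcripts.

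**Figure D2:**
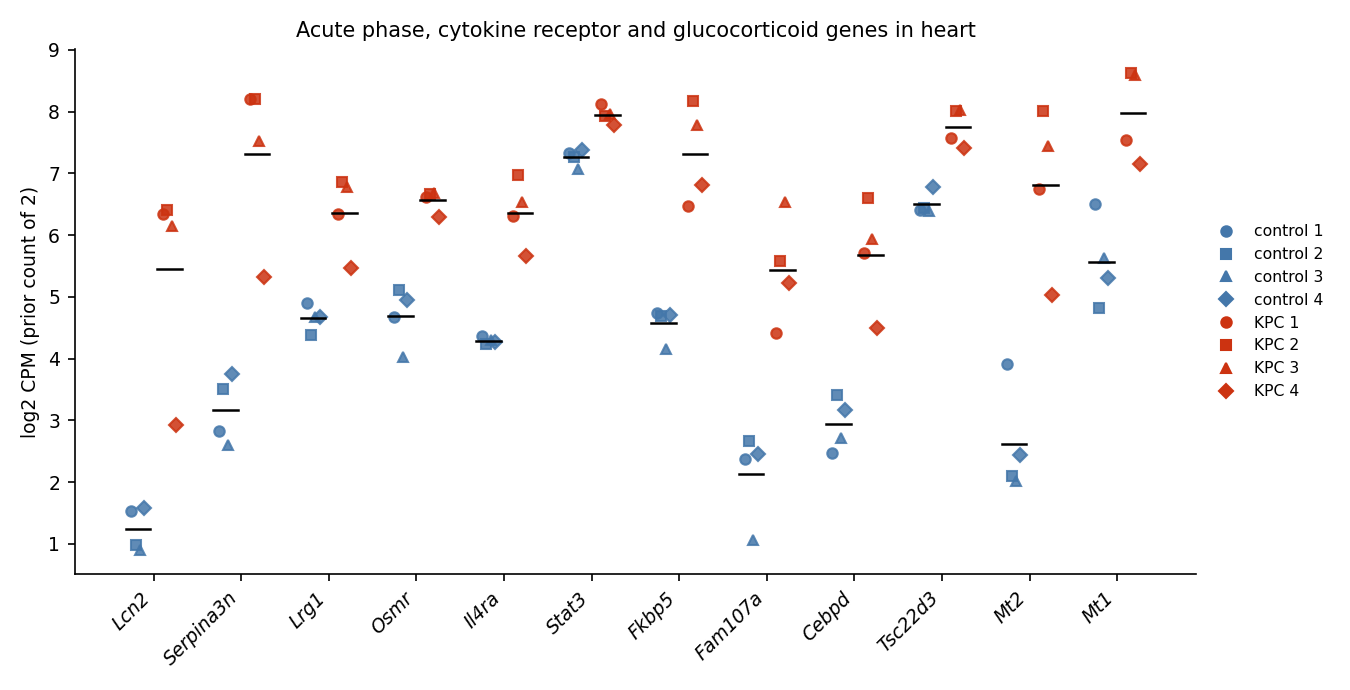
Log2 CPM (prior count of 2) of 12 acute phase, cytokine and glucocorticoid genes in each control (blue) and KPC (red) heart, with 1 symbol per library and a black line at the group mean. The groups do not overlap in any of the 12. KPC 4 is the lowest KPC heart in Lcn2, Serpina3n, Lrg1, Osmr, Il4ra, Stat3, Cebpd, Tsc22d3, Mt2 and Mt1, and KPC 1 in Fkbp5 and Fam107a.

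In the list of interleukin-6 family receptors and STAT3 targets, 11 of 16 tested were higher and none lower, with a median log2 fold change of 1.79, and 9 did not overlap. Among the receptors, Osmr, which binds oncostatin M together with gp130, read 25.4, 34.4, 16.2 and 30.7 CPM in controls and 98.0, 101, 102 and 78.1 CPM in KPC hearts. The KPC values were close to each other, and the fold was 3.55 (log2 1.83 ± 0.22, edgeR adjusted p = 0.00245). Il4ra, the receptor subunit for interleukins 4 and 13 and not of the interleukin-6 family, had the narrowest controls of the list, 20.5, 18.7, 19.5 and 19.1 CPM. It read 79, 125, 92.5 and 50.4 CPM in KPC hearts, a 4.46-fold rise (edgeR adjusted p = 0.00159). The subunits Il6ra, Il6st (gp130) and Lifr did not pass the test.

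Stat3 itself, the transcription factor of the pathway, read 135 to 166 CPM in controls and 280, 244, 250 and 220 CPM in KPC hearts, a 1.61-fold rise. Its feedback inhibitor Socs3 read 4.68 to 7.95 CPM in controls and 58.8, 169, 41.0 and 12.6 CPM in KPC hearts, a spread of over 10 times within the KPC group. Cebpd, a transcription factor of acute phase genes that is also counted among the glucocorticoid genes, read 5.42, 10.6, 6.45 and 8.84 CPM in controls and 52.6, 96.6, 60.9 and 22.5 CPM in KPC hearts, a 7.40-fold rise (edgeR adjusted p = 0.00294). Osmr, Il4ra and Cebpd were stable to leaving out a library, while Stat3 lost its call without control 3 (edgeR adjusted p = 0.0512). The count of genes that rose was 3 without control 3 and 13 without KPC 4, and Osmr alone of the list remained without the 3 libraries with atrial transcripts.

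The glucocorticoid genes formed the list with the most stable members. 13 of 22 tested rose and none fell, with a median log2 fold change of 1.16, and 12 did not overlap. Fkbp5, a co-chaperone of the glucocorticoid receptor, read 26.6, 25.6, 17.6 and 26.1 CPM in controls and 88.6, 288, 220 and 113 CPM in KPC hearts. Even the lowest KPC heart was over 3 times the highest control, and the fold was 7.39 (log2 2.89 ± 0.33, edgeR adjusted p = 0.00245). Tsc22d3, which encodes the anti-inflammatory protein GILZ, read 85, 86.3, 83.4 and 110 CPM in controls and 191, 257, 260 and 171 CPM in KPC hearts, a 2.41-fold rise. Fam107a, a stress-responsive actin-binding protein, read 5.05, 6.21, 1.96 and 5.37 CPM in controls and 21.1, 47.8, 92.8 and 37.2 CPM in KPC hearts, a 10.6-fold rise.

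KPC 4 was not the lowest KPC heart for several glucocorticoid genes. Sgk1, a kinase that regulates sodium transport, read 44.2 to 54.9 CPM in controls and 85.6, 125, 134 and 123 CPM in KPC 1 to 4. Ddit4, which restrains the growth-promoting kinase mTORC1, read 17.1 to 24.4 CPM in controls and 44.1, 97.3, 142 and 87.5 CPM in KPC hearts. For both, KPC 1 was the lowest KPC heart, as it was for Fkbp5 and Fam107a. Zbtb16, a zinc finger transcription factor, read 30.5 to 90.2 CPM in controls and 132, 214, 252 and 370 CPM in KPC hearts, with KPC 4 the highest.

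The glucocorticoid genes stable to leaving out a library were Fkbp5, Tsc22d3, Sgk1, Mt2, Ddit4, Cebpd, Nfkbia and Fam107a, 8 of the 13. The count was 8 without control 3, 16 without KPC 4, 10 with the atrial content as a covariate, and 2 (Fkbp5 and Fam107a) without the 3 libraries with atrial transcripts. Per1, Klf9, Klf15, Pdk4, Dusp1, Foxo1, Foxo3, Gadd45g and Cited2 did not pass the test. Pdk4, the kinase that closes the entry of pyruvate into the tricarboxylic acid cycle, read 412 to 1064 CPM in controls and 620, 1806, 1157 and 1640 CPM in KPC hearts, and the groups overlapped (log2 0.91 ± 0.36, edgeR adjusted p = 0.114). Cdkn1a, the cell cycle inhibitor p21 and a target of p53, read 18.7, 27.4, 21.8 and 11.6 CPM in controls and 44.1, 118, 102 and 45.5 CPM in KPC hearts, a 3.89-fold rise (edgeR adjusted p = 0.0116).

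Among the genes of zinc and iron handling, 5 of 14 rose and 1 fell, against 4.95% and 4.38% of all genes. The metallothioneins, small zinc-binding proteins, rose in all KPC hearts. Mt2 read 14.9, 4.18, 3.92 and 5.31 CPM in controls and 108, 257, 173 and 32.6 CPM in KPC hearts, a 20.3-fold rise (edgeR adjusted p = 0.00469), and Mt1 rose 5.34-fold (edgeR adjusted p = 0.0116, and 0.0512 without control 3). Mt1 and Mt2 are similar in sequence, as are Serpina3n and Serpina3m, and how reads shared by such genes were counted is not given here. Iron genes moved in both directions: Tfrc, the transferrin receptor that takes up iron, read 142, 133, 124 and 102 CPM in controls and 66.4, 19.8, 19.6 and 44.5 CPM in KPC hearts. Tfrc was thus 3.32-fold lower (edgeR adjusted p = 0.0221), while the ferritin genes Fth1 and Ftl1, which store iron, rose by log2 fold changes of 0.76 and 1.04. Hmox1, the haem-degrading enzyme, read 5.95 to 9.98 CPM in controls and 29.0, 97.6, 33.7 and 15.2 CPM in KPC hearts, a 5.51-fold rise. Tfrc lost its call without control 1, 3, 4 or KPC 3 (edgeR adjusted p up to 0.0661) and Hmox1 without control 1 or 3 (up to 0.0616). The log2 fold change of Hmox1 went from 2.46 to 1.73 without KPC 2, and that of Mt2 from 4.34 to 4.99 without control 1. The count that rose was 1 without control 3. Erythroid markers were high in KPC 1 to 3 as given above, and their part in the iron genes was not tested.

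**Figure D3:**
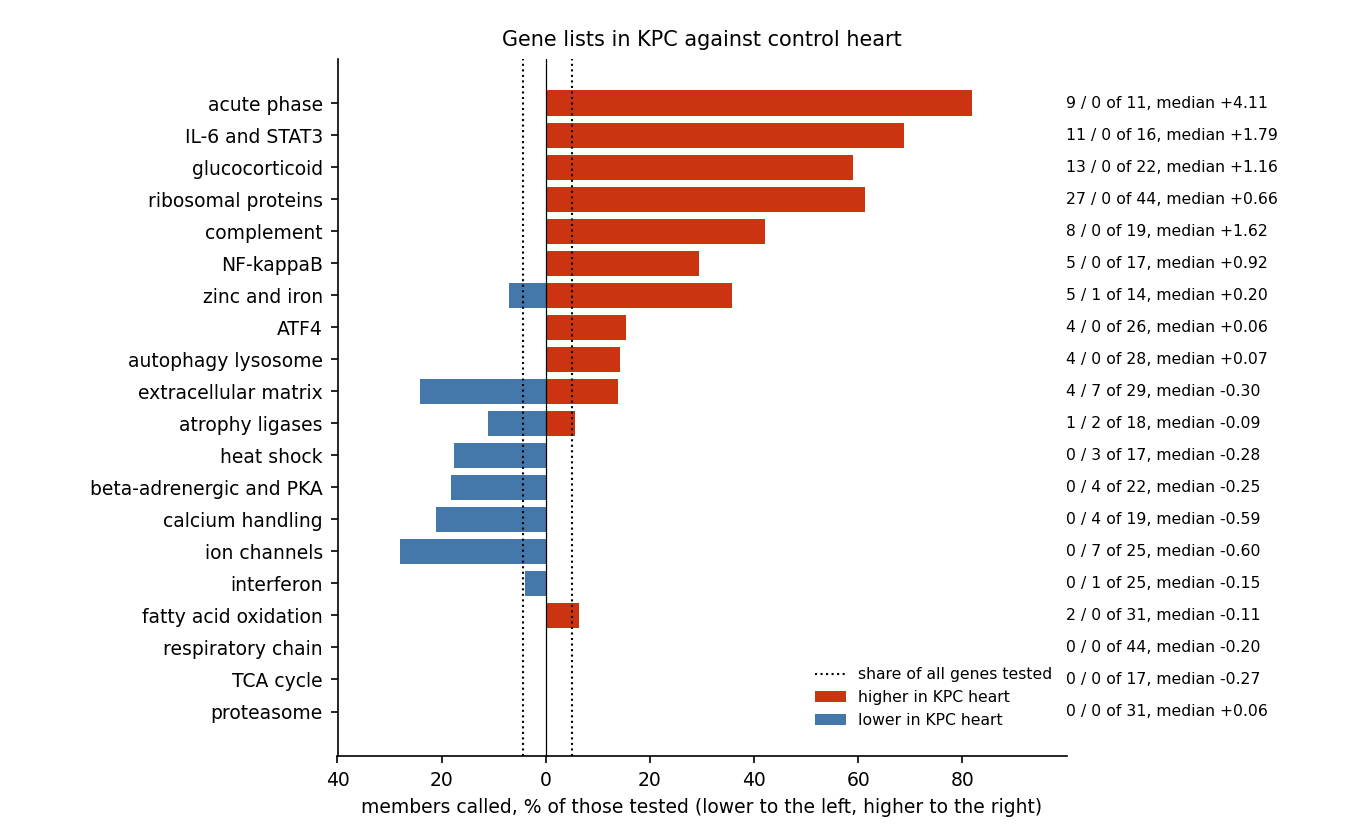
Share of the tested members of 20 gene lists called higher (red, to the right) or lower (blue, to the left) in KPC hearts at an edgeR adjusted p of 0.05; the dotted lines mark the share of all genes tested, 4.95% higher and 4.38% lower. The text at the right gives members higher / lower of those tested and the median log2 fold change of the list.

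Several of the highest fold changes were in genes of white blood cells. The 10 genes with the highest called and non-overlapping fold changes were Saa3, Arg1, Chil3, Spp1, Cd300lf, Serpina3m, Retnlg, Mmp8, S100a8 and Myh7. Arg1, the arginase of alternatively activated macrophages, read 0 to 0.239 CPM in controls and 6.82, 328, 29.8 and 1.00 CPM in KPC 1 to 4. Spp1, osteopontin, a secreted matrix protein of macrophages, read 0.218 to 0.951 CPM in controls and 9.84, 356, 34.1 and 1.54 CPM in KPC hearts. Chil3, a chitinase-like protein of mouse macrophages, read 0.0725 to 0.717 CPM in controls and 11.5, 236, 58.8 and 0.936 CPM in KPC hearts. In each of these 3 genes KPC 2 was at least 4 times the next heart and KPC 4 was the lowest KPC heart, at 1.54 CPM or less. Chil3 lost its call without any 1 of the controls or KPC 3 (edgeR adjusted p up to 0.0786). Arg1 and Spp1 lost their calls without any 1 of the controls, KPC 2 or KPC 3 (edgeR adjusted p up to 0.0889), and without KPC 2 the log2 fold change of Arg1 went from 9.57 to 6.71, that of Spp1 from 7.5 to 4.78 and that of Chil3 from 7.51 to 5.84. Without control 2 that of Arg1 was 10.27. Cd300lf, Serpina3m and Mmp8 moved by over 1.5 times without KPC 2, to 5.16, 5.12 and 4.96, Retnlg without KPC 3, to 5.01, and Serpina3m and Retnlg without control 2, to 7.19 and 6.26.

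Of the 10 neutrophil markers tested, 7 rose and none fell, with a median log2 fold change of 5.15, and the 13 markers measured summed to 5.94 to 17.3 CPM in controls and 33.6, 367, 262 and 24.4 CPM in KPC hearts. S100a8, a subunit of the antimicrobial protein calprotectin, read 0.293, 1.55, 0.580 and 0.504 CPM in controls and 6.55, 63.5, 55.8 and 4.35 CPM in KPC hearts. All KPC hearts were above all controls, in KPC 2 and 3 by the widest margin, and S100a8 lost its call without control 1, 3 or 4 (edgeR adjusted p up to 0.0586), while its log2 fold change went from 5.43 to 6.11 without control 2. More neutrophils and more of this RNA per cell cannot be told apart in whole tissue. The count of neutrophil genes that rose was 0 without control 3, 5 without KPC 2 and 11 without KPC 4.

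The macrophage list was mixed. 7 of 16 markers rose, 1 fell and the summed level was 174 to 318 CPM in controls and 592, 1395, 429 and 239 CPM in KPC hearts, with KPC 4 inside the control range. Cd163, a haemoglobin scavenger receptor of resident macrophages, read 29.6, 35.0, 16.4 and 30.0 CPM in controls and 55.1, 104, 66.7 and 38.1 CPM in KPC hearts. Cd14, the lipopolysaccharide co-receptor of monocytes, read 3.30 to 5.56 CPM in controls and 23.5, 119, 14.8 and 6.69 CPM in KPC hearts, and its log2 fold change went from 3.14 to 1.72 without KPC 2. Cx3cr1, the fractalkine receptor, went the other way, from 3.07, 9.44, 9.57 and 4.48 CPM in controls to 2.63, 2.35, 1.43 and 1.34 CPM in KPC hearts (edgeR adjusted p = 0.0303), and lost its call without control 2, 3 or 4 or KPC 2 or 3. The calls of the 7 were lost together without KPC 2 and without control 3, when 0 rose, and 11 rose without KPC 4.

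Complement genes, part of innate immunity in blood and tissue, rose in 8 of 19 and fell in none, with a median log2 fold change of 1.62, but only 1 of the 8 did not overlap. C4b, the fourth component, read 18, 65.0, 16.2 and 33.6 CPM in controls and 274, 521, 118 and 50.9 CPM in KPC hearts, with KPC 4 below control 2. C1qa, a subunit of the recognition complex made by macrophages, read 36.5 to 59.2 CPM in controls and 139, 231, 84.8 and 51.5 CPM in KPC hearts. Cfb, factor B of the alternative pathway, read 2.32 to 6.21 CPM in controls and 170, 102, 37.5 and 3.74 CPM in KPC hearts. The log2 fold change of C4b went from 2.86 to 2.18 without KPC 2 and that of Cfb from 4.33 to 3.61 without KPC 1. None of the 8 calls was stable to leaving out a library: 0 remained without control 3, 1 without KPC 2, and 15 were called without KPC 4. Macrophage markers rose in the same 3 hearts and mesothelial markers were highest in KPC 1 and 2. The part of either in the complement genes was not tested.

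In the list of ventricular stress genes, 1 of 13 rose and 2 fell, against 4.95% and 4.38% of all genes, and none passed in either direction without control 3. Myh7, the slow heavy chain that mouse ventricle expresses before birth and again under load, read 69.8, 92.5, 73.7 and 74.4 CPM in controls and 323, 3641, 7854 and 515 CPM in KPC hearts. KPC 2 and 3 were 7 times or more above KPC 1 and 4, the fold was 39.7 (log2 5.31 ± 1.05, edgeR adjusted p = 0.0182), and the call was lost without control 1, 3 or 4 (edgeR adjusted p up to 0.0694). Without KPC 3 the log2 fold change was 4.27. Myh7 lies beside Myh6, which is similar in sequence, and Myh6 read 21335 to 30198 CPM in controls and 17211, 11968, 14804 and 31260 CPM in KPC hearts without passing the test (log2 -0.52 ± 0.30, edgeR adjusted p = 0.256).

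The natriuretic peptides, hormones that the strained heart releases, were not higher. Nppb, brain natriuretic peptide, read 185, 126, 413 and 137 CPM in controls and 79.7, 89.7, 79.5 and 53.7 CPM in KPC hearts, 2.85-fold lower (edgeR adjusted p = 0.0425), and lost its call without control 1, 3 or 4 or KPC 1, 2 or 3 (edgeR adjusted p up to 0.118). Nppa, atrial natriuretic peptide, followed the atrial markers: it read 115, 1778, 156 and 2114 CPM in controls and 475, 36.3, 63.5 and 142 CPM in KPC hearts (log2 -2.54 ± 1.12, edgeR adjusted p = 0.148). Without the 3 libraries with atrial transcripts its log2 fold change was -0.75. Ankrd1, a stretch-responsive sarcomere protein, read 1191 to 1911 CPM in controls and 854, 971, 1070 and 996 CPM in KPC hearts, with no overlap (edgeR adjusted p = 0.0807), while Xirp2, which binds actin at the cell junctions, was 1.95-fold lower (edgeR adjusted p = 0.0303). Xirp2 lost its call without control 1, 3 or 4 or KPC 1, 2 or 3.

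Channels and the genes of calcium release fell in part. Of 25 potassium, sodium, pacemaker and gap junction genes, 7 fell and none rose, against 4.38% and 4.95% of all genes. None of the 7 overlapped except Scn4b, and the median log2 fold change of the list was -0.60. Gja1, connexin 43, which couples ventricular cells electrically, read 453, 577, 725 and 593 CPM in controls and 352, 210, 210 and 292 CPM in KPC hearts, 2.21-fold lower (edgeR adjusted p = 0.0120, and 0.0510 without control 3). Hcn2, a pacemaker channel, read 24.4, 20.3, 27.8 and 25 CPM in controls and 12.1, 7.75, 8.40 and 18.8 CPM in KPC hearts. Kcnd2 and Kcnd3, the pore subunits of the fast transient outward current, fell by 0.60 and 0.87 on the log2 scale. KPC 4 was the KPC heart nearest to the controls in Hcn2, Kcnd2 and Kcnd3.

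Of 19 calcium handling genes, 4 fell and none rose, against 4.38% and 4.95% of all genes. Ryr2, the calcium release channel of heart, read 2941, 2603, 2333 and 2991 CPM in controls and 1404, 871, 1458 and 2236 CPM in KPC hearts, 1.82-fold lower (edgeR adjusted p = 0.0484). Camk2d, the calmodulin-dependent kinase of heart muscle, read 220 to 253 CPM in controls and 144, 141, 124 and 186 CPM in KPC hearts (edgeR adjusted p = 0.0179), and Asph and Srl, of the junctional and longitudinal reticulum, also fell. The pump Atp2a2, its inhibitor Pln, the exchanger Slc8a1 and the L-type channel Cacna1c did not pass the test. Without control 3 none of the 4 calcium genes and none of the 7 channels passed; without KPC 2 the count was 1 in each list, and without KPC 4 it was 11 and 10. The 9 heart muscle markers, which include Ryr2, summed to 57745 to 81165 CPM in controls and 52839, 34463, 50696 and 75949 CPM in KPC hearts, so the lowest share of heart muscle RNA was in KPC 2, and its part in these falls was not tested.

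**Figure D4:**
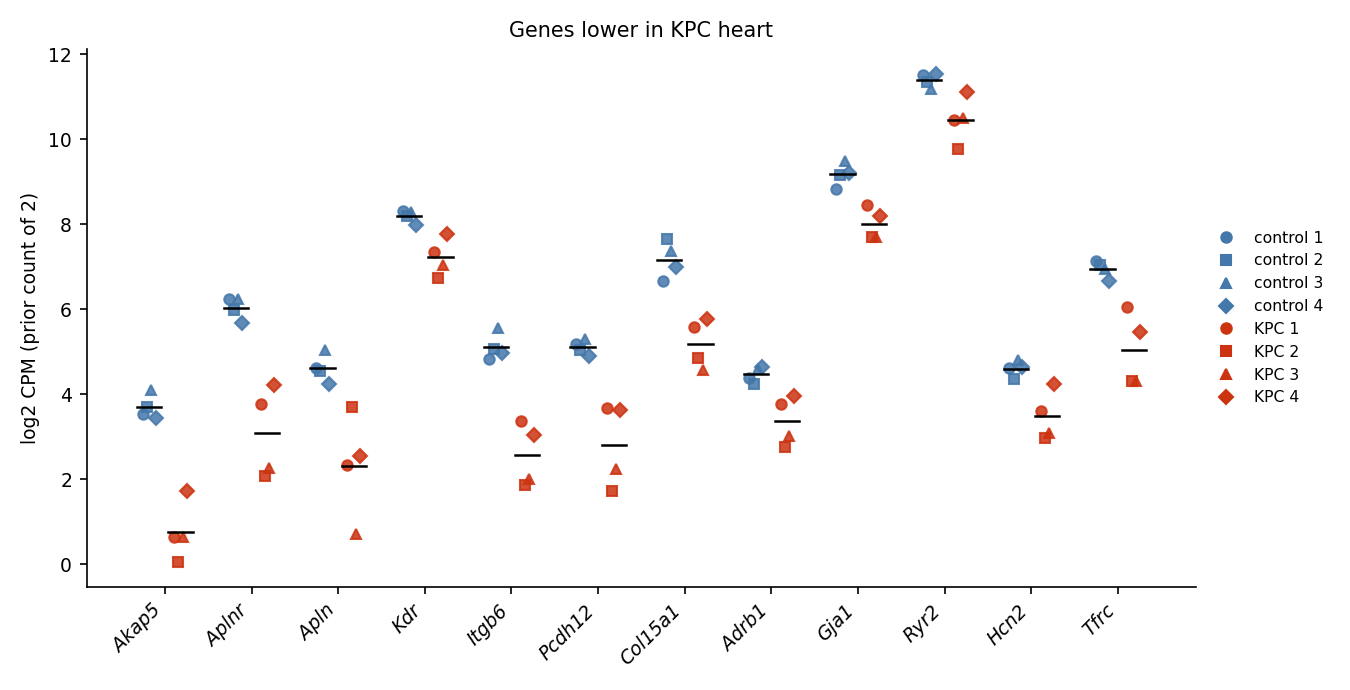
Log2 CPM (prior count of 2) of 12 genes that were lower in KPC hearts, in each control (blue) and KPC (red) heart, with 1 symbol per library and a black line at the group mean. The groups do not overlap in any of the 12, and KPC 4 is the highest KPC heart in Akap5, Aplnr, Kdr, Col15a1, Adrb1, Ryr2 and Hcn2.

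In the beta-adrenergic and protein kinase A list, 4 of 22 fell and none rose, against 4.38% and 4.95% of all genes. Adrb1, the main beta-adrenergic receptor of heart muscle, read 20.9, 18.8, 24.1 and 25 CPM in controls and 13.6, 6.68, 8.0 and 15.5 CPM in KPC hearts, 2.02-fold lower (edgeR adjusted p = 0.0280). Adrb1 lost its call without control 1, 3 or 4 or KPC 2 or 3 (edgeR adjusted p up to 0.0809). Akap5, the scaffold that holds protein kinase A and calcineurin at the membrane, read 11.5, 12.8, 17.2 and 10.7 CPM in controls and 1.43, 0.909, 1.43 and 3.21 CPM in KPC hearts. Akap5 was 7.52-fold lower (log2 -2.91 ± 0.34, edgeR adjusted p = 0.00245), the highest KPC heart was more than 3 times below the lowest control, and the gene was the member stable to leaving out a library. Akap6, the scaffold at the nuclear envelope, and Prkar2a, a regulatory subunit of the kinase, fell by 0.72 and 0.46 on the log2 scale, and both lost their calls without each library in turn other than KPC 4.

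The endothelial list of 19 markers had 3 lower and 1 higher, against 4.38% and 4.95% of all genes, 1 lower and none higher without control 3, and 3 lower and 4 higher with libraries scaled by their totals. The sum of the markers was 2565 to 3178 CPM in controls and 2783 to 3980 CPM in KPC hearts, with overlapping ranges. Aplnr, the receptor for apelin on blood vessels and heart muscle, read 75.4, 62.7, 75.6 and 51.4 CPM in controls and 13.6, 4.12, 4.67 and 18.5 CPM in KPC hearts, 6.46-fold lower (edgeR adjusted p = 0.00779) and stable to leaving out a library. Its ligand Apln read 24.6, 23.1, 33.0 and 18.7 CPM in controls and 4.90, 12.9, 1.51 and 5.75 CPM in KPC hearts, 3.92-fold lower (edgeR adjusted p = 0.0301, up to 0.0879 when a control or KPC 1 was left out), and its log2 fold change of -1.97 was -2.57 without KPC 2. Kdr, a receptor for vascular endothelial growth factor, was 1.90-fold lower (edgeR adjusted p = 0.0224, and 0.0703 at most without control 1, control 3 or KPC 3). Sox17, a transcription factor of arterial endothelium, read 11.2, 6.10, 6.82 and 6.10 CPM in controls and 11, 17.0, 34.9 and 32.8 CPM in KPC hearts, a 3.16-fold rise with overlap between control 1 and KPC 1 (edgeR adjusted p = 0.0381, and up to 0.109 without any 1 of the controls, KPC 2 or KPC 3). Pecam1, Cdh5, Tek and 12 others did not pass the test.

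Matrix genes split by kind. Of 29, 7 fell, all of them collagens, and 4 rose, against 4.38% and 4.95% of all genes. Col15a1, a collagen of vessel and muscle basement membranes, read 101, 203, 166 and 127 CPM in controls and 48.0, 28.8, 23.5 and 54.5 CPM in KPC hearts, 3.85-fold lower (edgeR adjusted p = 0.00726), the member stable to leaving out a library. Col8a1 read 29.0 to 32.1 CPM in controls and 15.4, 10.6, 10.5 and 19.9 CPM in KPC hearts, and Col4a1 and Col4a2, of basement membranes, fell by 0.79 and 0.73 on the log2 scale. The collagens of fibrous scar, Col1a1, Col1a2 and Col3a1, did not pass the test. Lox, which crosslinks collagen, read 4.81 to 11.7 CPM in controls and 53, 71.2, 34.3 and 10.2 CPM in KPC hearts, and Fn1 and Thbs1 rose with their highest values in KPC 2, at 2045 and 891 CPM. Without control 3 the list had 1 lower and none higher.

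Several genes with the lowest fold changes belong to none of these groups. The 10 lowest were Rtn4r, Akap5, Zim1, Aplnr, Itgb6, Klhdc8a, B3galt2, Mycn, Mfap4 and Pcdh12. Itgb6, an integrin subunit that activates transforming growth factor beta, read 28.4, 33.5, 46.9 and 31.1 CPM in controls and 10.2, 3.53, 3.88 and 8.09 CPM in KPC hearts, 5.41-fold lower (edgeR adjusted p = 0.00340). Zim1, an imprinted zinc finger gene, read 2.05 to 3.23 CPM in controls and 0.238 to 0.428 CPM in KPC hearts, 7.13-fold lower. Pcdh12, a protocadherin of endothelial junctions, read 29.8 to 39.4 CPM in controls and 12.7, 3.21, 4.59 and 12.2 CPM in KPC hearts. Itgb6, Zim1, Akap5, Aplnr and Pcdh12 of the 10 were stable to leaving out a library, and Rtn4r, the receptor for Nogo, was lost without control 3 alone (edgeR adjusted p = 0.0549) and moved from a log2 fold change of -3.16 to -4.01 without KPC 1.

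The ubiquitin ligases that mark muscle atrophy did not rise together: 1 of 18 rose, against 4.95% of all genes, and 2 fell, against 4.38%. Fbxo32, or atrogin-1, read 264, 228, 266 and 323 CPM in controls and 152, 230, 424 and 361 CPM in KPC hearts (log2 0.11 ± 0.28, edgeR adjusted p = 0.816). Trim63, or MuRF1, read 186 to 259 CPM in controls and 144, 188, 307 and 226 CPM in KPC hearts (log2 0.01 ± 0.23, edgeR adjusted p = 0.980). For both ligases KPC 1 was the lowest and KPC 3 the highest of the KPC hearts, and the control range lay inside the KPC range. Cblb, a ligase that acts on receptor signalling, rose 1.76-fold, and Fbxo40 and Mdm2 were 1.61- and 1.29-fold lower, all 3 with calls that were lost without control 1, 3 or 4 or KPC 3. None of 31 proteasome subunits passed, with a median log2 fold change of 0.06. Igf1 read 22.7 to 36.9 CPM in controls and 45.1, 35.8, 16.5 and 18.7 CPM in KPC hearts without passing the test, and Mstn, myostatin, was below 1 CPM in every library.

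Of 44 ribosomal protein genes tested, 27 rose, 17 did not pass the test and none fell, with a median log2 fold change of 0.66, but only 3 did not overlap. Rpl5 read 274, 284, 293 and 260 CPM in controls and 493, 610, 463 and 302 CPM in KPC hearts, and in Rpl10a and Rps9 too KPC 2 was the highest heart and KPC 4 lay just above the controls. The 27 calls went to 0 without control 3 and without KPC 2, to 42 without KPC 4 and to 1 with the atrial content as a covariate, while the median stayed between 0.59 and 0.84. Pseudogenes of these genes are many, and the counting of shared reads is likewise not given. Of 17 cytosolic heat shock genes, 3 fell and none rose, against 4.38% and 4.95% of all genes. Hsph1, a nucleotide exchange factor for Hsp70, read 60.6 to 107 CPM in controls and 45.5, 41.9, 34.4 and 38.0 CPM in KPC hearts, and Fkbp4, a co-chaperone of steroid receptors, was 1.95-fold lower. Hsph1 lost its call without control 1, 3 or 4 or KPC 3, and Fkbp4 also without KPC 2.

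The effect of the tumour was then set against that in skeletal muscle of the same study. The difference between the tissues was tested directly in a fit of all 24 libraries, and it passed for 3747 of 14509 genes (25.8%), with the change higher in heart for 1947 (13.4%) and lower for 1800 (12.4%). With the animal as a block, in the 12 control and KPC libraries of animals that gave both tissues, 1 gene passed, Foxo1, and without the block 6 passed in the same 12 libraries. Of the 1293 genes called in heart, 566 were called in the same direction in muscle, which is 43.8% of the heart calls and 8.93% of the 6336 muscle calls, and 92 were called in the opposite direction. The opposite calls were 7.12% of the heart calls. In muscle, 49.7% of the 12760 genes tested were called, a share that counts both directions and so is not like the 43.8%. Whether the response is shared was not tested. For 480 heart calls, or 37.1%, the difference between tissues itself passed.

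Fbxo32 and Trim63 were unlike in the 2 tissues. Trim63 rose by a log2 fold change of 3.92 ± 0.52 in muscle against 0.01 ± 0.23 in heart (difference -3.82 ± 0.56, edgeR adjusted p = 0.000580), and Fbxo32 by 3.22 ± 0.43 against 0.11 ± 0.28 (difference -3.03 ± 0.52, edgeR adjusted p = 0.00121). For 29 of 31 proteasome subunits, against 12.4% of all genes, the change was lower in heart, where the median log2 fold change was 0.06 against 1.17 in muscle. It was also lower for 7 of the 18 atrophy ligases. With libraries scaled by their totals these counts were 20 and 3. Doc2b, Kcnv2, Zim1 and Arhgap26 had, with Trim63, the lowest differences, and Zim1 rose in muscle (log2 1.23 ± 0.48, edgeR adjusted p = 0.0481) while it fell in heart.

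In the other direction, the change was higher in heart for 23 of 29 matrix genes, 13 of 16 macrophage markers, 12 of 19 complement genes and 15 of 26 interferon response genes. The share of all genes was 13.4%. The median of the matrix genes was -0.30 in heart and -2.34 in muscle, and that of the complement genes 1.62 in heart and -0.63 in muscle. For the macrophage markers it was 1.40 in heart and -0.74 in muscle, and for the interferon genes -0.15 and -1.10. In heart alone, 0 of the 25 interferon genes tested were called higher and 1 lower. Spp1, Tmem119, Ptx3 and Myh7 were among the genes with the highest differences. Spp1 rose in heart by a log2 fold change of 7.5 ± 1.75 and read -0.99 ± 0.68 in muscle (difference 8.55 ± 1.83, edgeR adjusted p = 0.00333). None of the genes named for these differences passed in the blocked fit of 12 libraries.

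Some of the leading heart genes had like values in muscle. Fkbp5 rose by 2.89 ± 0.33 in heart and 2.96 ± 0.40 in muscle (difference 0.00 ± 0.47), Akap5 fell by 2.91 and 3.16, and Aplnr by 2.69 and 2.38. Osmr rose more in heart (log2 1.83 ± 0.22 against 1.05 ± 0.20, edgeR adjusted p of the difference = 0.0387), and Cebpd less (2.89 ± 0.37 against 4.6 ± 0.50, edgeR adjusted p = 0.0485). A difference that did not pass, as in Fkbp5, Akap5 and Aplnr, does not show that the tissues responded alike.

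**Figure D5:**
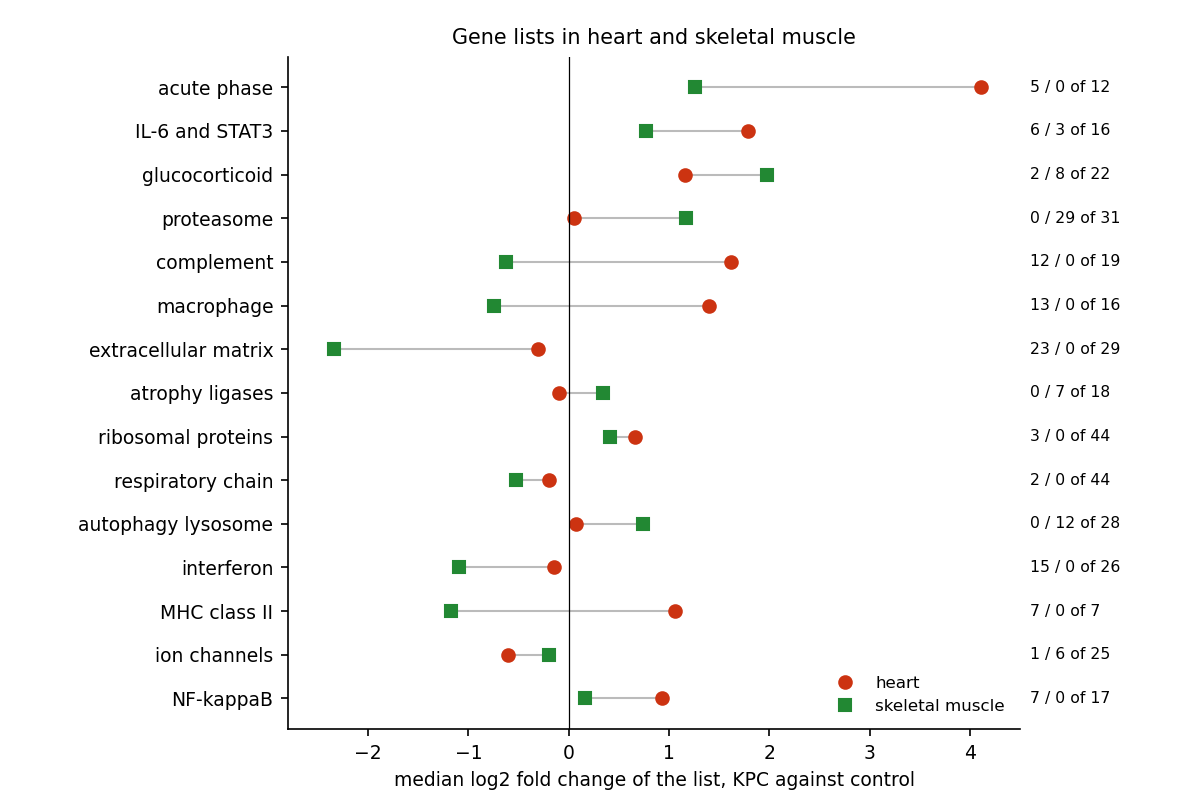
Median log2 fold change, KPC against control, of 15 gene lists in heart (red circles) and skeletal muscle (green squares); the numbers at the right give members whose change was higher / lower in heart than in muscle, of those tested in both tissues. Proteasome subunits lie at 0.06 in heart and 1.17 in muscle, and complement genes at 1.62 and -0.63.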

How the data were processed

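RNA of 8 hearts was compared, 4 control and 4 KPC, grouped by the labels. Per the labels' protocols, 100 ng of total RNA went into KAPA mRNA Hyperprep libraries, sequenced as paired ends of 100 bases. The submitters' processing notes name FastQC 0.11.5, STAR 2.5, edgeR 3.12.1, featureCounts (Subread 1.5.1) and the build mm10; the annotation and the use of strand are not stated there. For each tissue the authors deposited raw counts and log2 FPKM. Where a heart gene reached 200 counts in all libraries (6623 genes), deposited log2 FPKM was log2 counts plus a gene and a library constant (residual SD 0.000957), the latter within 0.0259 of trimmed mean of M values (TMM) scaling.

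Counts were tested in edgeR 4.0.16 (R 4.3.3): filterByExpr (minimum count 10, minimum total 15), TMM scaling, and the quasi-likelihood F test in one fit of the 12 heart libraries of 3 groups. P-values were adjusted by Benjamini-Hochberg over every gene in the fit, with a threshold of 0.05. SE is that of the log2 fold change, taken from F. The difference between heart and muscle was an interaction contrast over 24 libraries. Alternatives used DESeq2 1.42.0, limma 3.58.1 on log2 FPKM, other scalings, no filter, covariates for atrial and brown fat content, and each library left out. No list was tested: members past the threshold were counted and set beside all genes. Both fits were checked on simulated counts. No 2 libraries of a group were copies (smallest chi-square per gene 18.3). Each heart was taken as a separate animal by the number in its title. The p-values of the heart fit measure the spread between animals within the 3 groups of 12 hearts, not that of the 8 compared hearts alone. Some animals gave both a heart and a muscle library. The fit of 24 libraries had no block for the animal, so its p-values do not account for that pairing.

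The comparison, its gene lists, markers and rules were chosen with earlier results of these data known. Named genes were the 10 highest and 10 lowest called log2 fold changes without overlap, leaving out unnamed gene models and genes whose higher group averaged under 2 CPM. To these were added the 4 members with the smallest p in each list described, and Myh6, Myh7, Nppa, Nppb, Fbxo32, Trim63, Mstn, Igf1, Pdk4, Cdkn1a, Lcn2 and Serpina3n whatever their result. Between tissues, 5 genes were named at each end of the called differences, given a mean of 2 CPM or more in the highest group of heart and of muscle. Some genes that these rules select are not reported here. Other genes named are list members or were chosen after their values were seen. Promoters are RefSeq entries of GRCm38.p6, and gene locations come from GENCODE vM21.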

Additional observations from a re-analysis of the deposited data

Results flagged for a closer look

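In 12 of 198 pairs of a named gene and a group of 4 hearts, 1 heart stood apart from the other 3 by more than Dixon's 95% limit, where chance flags about 1 in 20. KPC 4 was the lone heart in 4 of them, always below: its log2 CPM was 2.93 for Lcn2 against 6.15 to 6.40 in the other KPC hearts, 6.29 for Osmr against 6.62 to 6.68, 3.53 for Slc4a1 against 7.17 to 7.46 and 5.99 for Bpgm against 8.66 to 9.19. KPC 1 stood above for Bmp10, an atrial growth factor, at 2.83 against -3.01 in the other KPC hearts. Among controls, control 3 was low for Fkbp5 (4.15 against 4.68 to 4.74) and Map3k6 (2.84 against 3.59 to 3.62). Control 4 was high for Tsc22d3 (6.79 against 6.38 to 6.43) and Akap6 (8.51 against 8.24 to 8.26). Control 2 was low for 3 muscle genes, Xirp2 (10.08 against 10.59 to 10.66), Asph (8.19 against 8.32 to 8.34) and Srl (10.24 against 10.59 to 10.64).

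The tumour effect differed between heart and muscle for these named genes, given as the log2 fold change in heart minus that in muscle, each with an edgeR adjusted p under 0.05 in the fit of 24 libraries and none in the fit with the animal as a block. The change was higher in heart for immune and secreted genes: Spp1 (8.55), Ptx3 (5.80), Cfb (5.23), Cx3cr1 (3.28), Cd14 (2.74), C1qa (2.43), C1qb (2.40), Lyve1 (2.16), Irak3 (1.19), Cd163 (1.16) and Osmr (0.86). It was also higher for matrix and vessel genes: Col5a1 (2.29), Apln (2.25), Lox (1.82), Col8a1 (1.70) and Thbd (1.60). Beside them stood Tmem119 (7.22), Myh7 (5.56), Bpgm (3.37), Igf1 (1.23) and Slc3a2 (0.45). Of these genes, Cx3cr1, Apln, Col5a1 and Col8a1 were called lower in heart itself, by log2 fold changes of -1.76, -1.97, -1.05 and -1.13. Cx3cr1 averaged at most 0.485 CPM in any muscle group and was not tested in muscle alone. The change was lower in heart for Doc2b (-5.72), Kcnv2 (-4.24), Zim1 (-3.98), Trim63 (-3.82), Arhgap26 (-3.75), Fbxo32 (-3.03), Mt1 (-2.63), Pdk4 (-1.78), Cebpd (-1.62), Ankrd1 (-1.61), Gja1 (-1.05), Hsph1 (-1.02), Mdm2 (-0.65), Hspa4 (-0.57) and Camk2d (-0.51). Of these, Mt1 and Cebpd were called higher in heart itself.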

How the results depend on the processing

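Against 1293 calls (686 higher, 607 lower), DESeq2 gave 2491 (1416, 1075), the 8 hearts fitted alone 229 (136, 93), the atrial covariate 514 (286, 228), the brown fat covariate 859 with 400 lower, and scaling by library totals 1368 higher and 330 lower. Leaving out 1 library gave 104 to 3554 calls, 71 to 1911 higher and 33 to 1643 lower. Without the 3 libraries with atrial transcripts, an alternative chosen after seeing the data, 13 remained (9, 4; the 4 lower were Nrp2, Itgb6, Fscn1 and Itga9). Of 843 list members tested, 159 were called; DESeq2 gave 264, the 8 hearts alone 37, the covariates 71 and 103, single libraries left out 18 to 335, and the 3 left out 4 (Fkbp5, Fam107a, Osmr and Slc3a2). For the difference between tissues, library totals gave 3436 higher and 755 lower in heart in place of 1947 and 1800, the replicate block 1 (0 and 1), and the same 12 libraries with no block, also chosen after seeing the data, 6 (4 and 2). No paired analysis was possible for KPC against control because the hearts come from different animals. Reversals were in genes that did not pass. With libraries left out, Fbxo32 read -0.13 to 0.32 (-0.13 and -0.011 without KPC 3 and 4), Mstn -0.998 to 0.54 (0.54 without control 2), Igf1 -0.32 to 0.16 (0.09, 0.16 and 0.13 without control 2, KPC 3 and KPC 4) and Trim63 down to -0.21 (-0.018, -0.054, -0.21 and -0.013 without controls 1 and 2 and KPC 3 and 4). Trim63 read -0.024 in limma and -0.11 with the atrial covariate, Mstn 0.94 without the atrial libraries, and Igf1 0.16 with library totals, 0.0070 in the 8 hearts alone and 0.14 with the atrial covariate. The cause of these shifts was not tested.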

Other observations

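The 3 genes with the smallest p among those stable to leaving out a library lie outside the lists described, and were chosen after their values were seen. Slc3a2, the heavy chain that carries amino acid transporters to the membrane, read 34.2, 35.5, 32.4 and 34.6 CPM in controls and 77.1, 95.6, 99.6 and 74.7 CPM in KPC hearts, a 2.54-fold rise (edgeR adjusted p = 0.000299). Its 4 controls lay within 10% of each other and KPC 4 was close to KPC 1. Map3k6, a stress-activated kinase, read 11.9, 12.2, 7.03 and 12 CPM in controls and 38.8, 60.1, 77.0 and 67.3 CPM in KPC hearts, and Irak3, an inhibitor of toll-like receptor signalling, read 5.87 to 8.25 CPM in controls and 19.6, 26.6, 24 and 16.4 CPM in KPC hearts. All 3 were also called without the libraries with atrial transcripts.

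Genes known from blood vessels moved in both directions among the stable ones, again chosen after their values were seen. Bcl6b, a transcriptional repressor of endothelial cells, read 42.6, 36.5, 56.8 and 32.8 CPM in controls and 11.8, 5.56, 10.7 and 13.2 CPM in KPC hearts, 4.09-fold lower (edgeR adjusted p = 0.00302). Vash1, an inhibitor of vessel growth made by endothelium, read 43.6 to 69.2 CPM in controls and 16.5, 11.5, 19.1 and 21.5 CPM in KPC hearts, 3.18-fold lower. In the other direction, S1pr1, a receptor for sphingosine 1-phosphate, rose 1.95-fold and Spns2, which exports that lipid from endothelium, rose 2.63-fold, from 9.57 to 16.1 CPM in controls to 34.0, 29.4, 42.6 and 35.5 CPM in KPC hearts. Thbd, the anticoagulant receptor thrombomodulin, read 66.4 to 81.7 CPM in controls and 159, 136, 123 and 121 CPM in KPC hearts (edgeR adjusted p = 0.00429).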
